A study of Mus musculus with 7 samples.

Results

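Small leucine-rich proteoglycans (SLRPs) are secreted proteins of the extracellular matrix that bind collagen fibrils, set their diameter and spacing, and hold growth factors in the matrix. The genes described here are 8 SLRPs, *Dcn*, *Bgn*, *Aspn*, *Fmod*, *Lum*, *Prelp*, *Omd* and *Ogn*, and *Aebp1*, which encodes the collagen-binding protein AEBP1 (also called ACLP). They were taken by name, as matrix genes of fibrotic tissue, and are 9 of the 21965 genes in the count table. Earlier results of these data were known when they were chosen, so shares set beside all genes are descriptions. All 9 had enough reads to be tested.

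RNA came from a 5 mm segment of mouse spinal cord centred on a moderate contusion at T9 (50 kdyn), collected at 3 days post injury (dpi 3), with 1 library per mouse. The first group was 3 mice labelled *Bmal1*-/- (2 females, 1 male), of the strain B6.129-Arntltm1Bra/J on C57BL/6. By their label they are germ line knockouts of *Arntl*, the gene of the clock transcription factor BMAL1, which are not limited to a cell type or an age. The second was 4 C57BL/6 WT mice (2 females, 2 males), of which 1 was a littermate of knockouts and the others were purchased. All 7 mice were young adults and all were injured, so no uninjured level is given here.

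In the contused cord, SLRPs and their collagen partners are known as products of fibroblasts of the meninges and of vessel walls, which build the fibrotic part of the scar. Decorin, biglycan and asporin form 1 class of the family, of which decorin and biglycan carry chondroitin or dermatan sulfate chains, while fibromodulin, lumican, PRELP and osteomodulin form another, in which fibromodulin, lumican and osteomodulin can carry keratan sulfate. AEBP1 is no proteoglycan. It is a secreted protein with a carboxypeptidase-like domain that binds fibrillar collagen, and its loss in humans causes a form of Ehlers-Danlos syndrome.

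As BMAL1 acts by binding E-box DNA, promoter sequences were read for the members from RefSeq (GRCm38.p6), which held 7 of the 9, without *Dcn* and *Lum*. Each covers 250 bases before to 50 bases after the start site. The 250 bases before the start site are shown for *Fmod* (chr1:134037004-134037253, + strand) and *Aebp1* (chr11:5861616-5861865, + strand), the members that passed the test below. They are also shown for *Ogn* (chr13:49607765-49608014, + strand) and *Aspn* (chr13:49544193-49544442, + strand), which lie in 1 gene cluster and hold the only motif found, TATAAA on the coding strand, in capitals.
Fmod: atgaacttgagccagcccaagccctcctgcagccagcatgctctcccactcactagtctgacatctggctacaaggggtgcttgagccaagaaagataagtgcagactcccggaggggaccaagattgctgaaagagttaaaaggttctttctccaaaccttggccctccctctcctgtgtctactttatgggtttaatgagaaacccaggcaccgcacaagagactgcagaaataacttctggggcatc
Aebp1: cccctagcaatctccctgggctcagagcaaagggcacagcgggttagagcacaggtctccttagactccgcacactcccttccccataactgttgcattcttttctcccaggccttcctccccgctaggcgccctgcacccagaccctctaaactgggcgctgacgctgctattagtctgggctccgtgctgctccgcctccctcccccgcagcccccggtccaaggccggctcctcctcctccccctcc
Ogn: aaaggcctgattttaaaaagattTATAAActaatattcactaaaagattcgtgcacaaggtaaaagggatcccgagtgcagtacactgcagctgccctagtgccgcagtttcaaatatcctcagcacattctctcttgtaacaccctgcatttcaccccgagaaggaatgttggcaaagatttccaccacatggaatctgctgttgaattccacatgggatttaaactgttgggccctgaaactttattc
Aspn: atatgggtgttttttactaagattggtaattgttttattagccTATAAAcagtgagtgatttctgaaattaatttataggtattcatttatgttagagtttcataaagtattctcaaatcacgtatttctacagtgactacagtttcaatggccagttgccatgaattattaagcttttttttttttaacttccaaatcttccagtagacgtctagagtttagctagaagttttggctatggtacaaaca

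None of the 7 promoters held the E-box CACGTG, the D-box TTATGTAA or the REV-ERB element TAGGTCA on either strand. Over all 32851 promoters of the same length, 7.15% held the E-box, 0.938% the D-box, 2.61% the REV-ERB element and 8.32% the letters TATAAA on the coding strand. The TATAAA letters began at -227 in *Ogn* and -207 in *Aspn*, counted from the start site. GC content of the 300 bases was 31%, 37.7% and 42.3% in *Aspn*, *Omd* and *Ogn*, the members on chromosome 13. It was 51% to 66.3% in *Fmod*, *Prelp*, *Bgn* and *Aebp1*, where the mean of all promoters was 53.8%. A missing match says only that these letters are not in these windows.

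The libraries held 38529644 to 44096737 counts. Astrocyte, oligodendrocyte and neuron markers were abundant in each, with neuron markers lowest in WT replicate 3. Levels are given in CPM, counts scaled to the same library size with TMM factors. *Arntl* itself had 24.1, 24.2 and 22.5 CPM where the label was *Bmal1*-/- and 14.7, 15.3, 11.9 and 13.4 CPM in WT, against what that label alone would give (log2 fold change 0.77, SE 0.10, adjusted p = 0.0155). What the allele leaves of the transcript was not tested. Labels are used as given, and a negative fold change means a lower level under the *Bmal1*-/- label than in WT. The test was the quasi-likelihood test of edgeR, with p adjusted by Benjamini-Hochberg over all 15743 genes tested.

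Replicate 2 of the libraries labelled *Bmal1*-/- stood apart from replicates 1 and 3 in these genes. Its level was more than 1.5 times the mean of the other two in 8 of the 9 members, where 4.07% of 15718 genes reached that ratio and the median gene had a ratio of 0.997. The ratio was 11 for *Ogn*, 9.56 for *Aspn*, 6.46 for *Omd*, 4.69 for *Bgn* and 4.66 for *Dcn*. It was lower, 1.92, 1.7, 1.61 and 1.45, for *Prelp*, *Lum*, *Aebp1* and *Fmod*. This ratio was chosen after the values were seen, and each member is given below with and without that library.

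All 9 members had a lower mean in the libraries labelled *Bmal1*-/-, and their median log2 fold change was -1.23, where the median over all genes tested was -0.01. In bulk tissue, fewer cells of a type and less RNA per cell cannot be told apart. *Fmod* and *Aebp1* passed an adjusted p of 0.05, both lower, which is 2 of 9 members where 0.915% of all genes tested were called lower. None was higher (0 also at an unadjusted p under 0.05 and 0 with DESeq2), where 0.654% of all genes were. In 4 members, *Fmod*, *Aebp1*, *Lum* and *Prelp*, each of the 3 libraries labelled *Bmal1*-/- lay under each of the 4 WT libraries, as they did in 13.4% of all genes. No member had them all over WT, as 13.4% of all genes did.

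**Figure D1:**
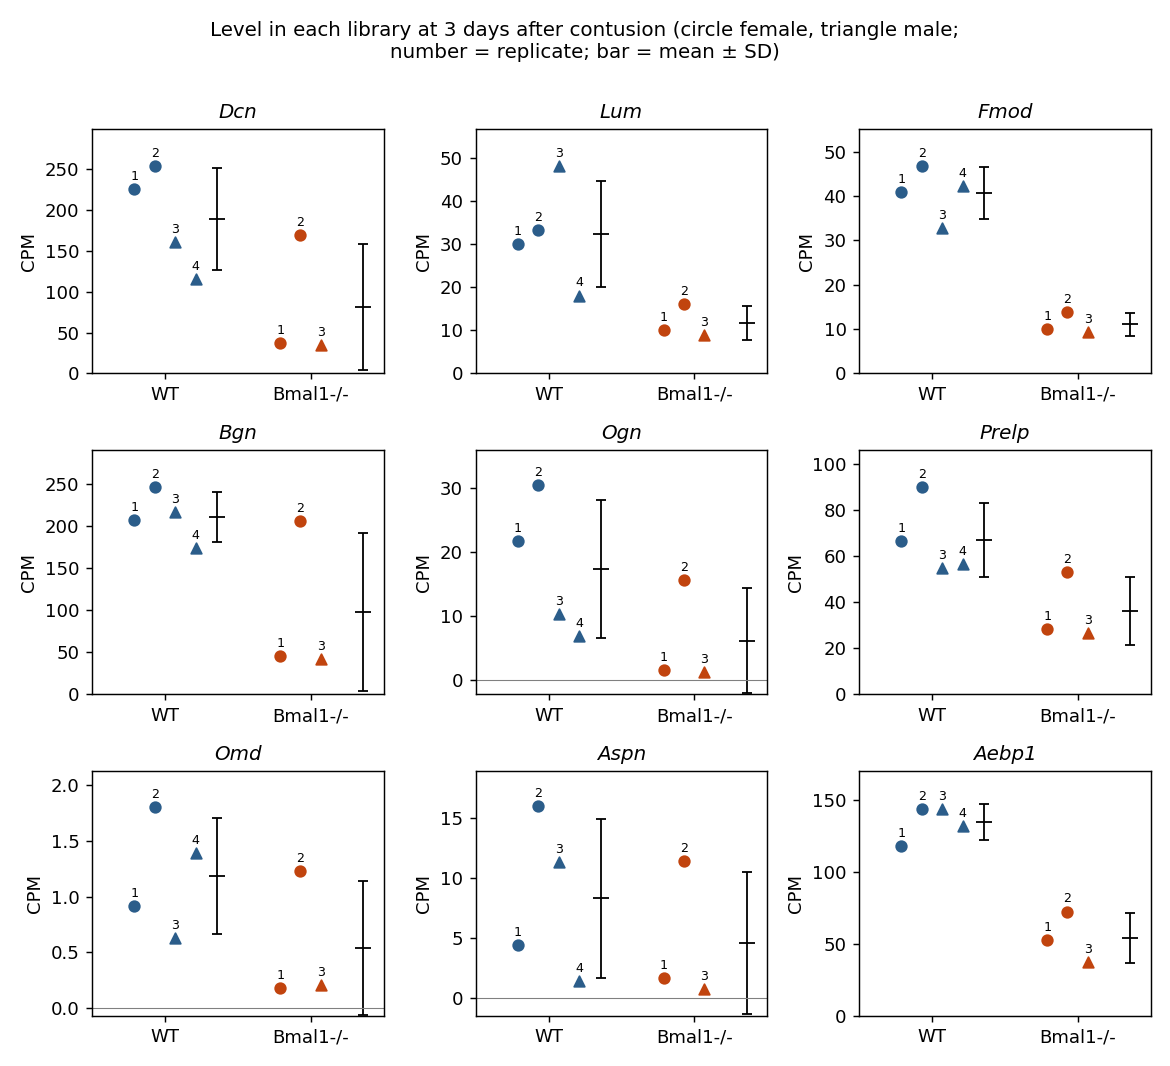
Level of each of the 9 genes in each library in CPM on a linear axis (circles females, triangles males, numbers the replicate), with the mean and SD of each group beside the points, where the lower SD bar of *Ogn*, *Omd* and *Aspn* passes below 0. Replicate 2 of the libraries labelled *Bmal1*-/- lies among or near the WT values for *Dcn*, *Bgn*, *Ogn*, *Omd*, *Aspn* and *Prelp*, and well under them for *Fmod* and *Aebp1*.

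*Fmod* (ENSMUSG00000041559, chromosome 1, 134037254 to 134048277, GRCm38) encodes fibromodulin, which binds collagen I and guides the early growth of fibrils. Its level was 9.89, 13.9 and 9.26 CPM in libraries labelled *Bmal1*-/- and 40.8, 46.7, 32.7 and 42.3 CPM in WT. The groups were far apart, and even the highest library labelled *Bmal1*-/- was at 42.3% of the lowest WT library. Mean *Fmod* was 40.6 ± 5.83 CPM in WT (SD, n = 4) and fell to 11 ± 2.49 CPM (SD, n = 3). The log2 fold change was -1.88 (SE 0.18, adjusted p = 0.00456), which ranked it 39 of all genes by p. With any 1 of the 7 libraries left out it still passed (-2.08 to -1.78), and without replicate 2 the log2 fold change was -2.08 (adjusted p = 0.00601).

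*Aebp1* (ENSMUSG00000020473, chromosome 11, 5861947 to 5872088) had 52.6, 72.4 and 37.4 CPM in libraries labelled *Bmal1*-/-. The WT libraries lay close together at 118, 144, 144 and 132 CPM, and no library of 1 group entered the range of the other. Mean *Aebp1* was 134 ± 12.6 CPM in WT (SD, n = 4) and fell to 54.1 ± 17.5 CPM (SD, n = 3), with a log2 fold change of -1.31 (SE 0.21, adjusted p = 0.0342). The call was kept without replicate 2 of the libraries labelled *Bmal1*-/- (-1.58, adjusted p = 0.0153) and without WT replicate 3, and lost without replicate 1 (-1.29, adjusted p = 0.176) or 3 (-1.11, adjusted p = 0.06) of the libraries labelled *Bmal1*-/-. It was also lost without WT replicate 1 (-1.38), 2 (-1.28) or 4 (-1.32), with adjusted p of 0.0793, 0.075 and 0.0866.

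Lumican, the product of *Lum* (chromosome 10, 97565128 to 97572703), is a keratan sulfate proteoglycan that limits fibril thickness and is best known from the cornea. *Lum* had 9.99, 16.1 and 8.96 CPM in libraries labelled *Bmal1*-/- and 30.1, 33.3, 48.2 and 18.1 CPM in WT. The groups did not overlap, but WT replicate 4 was only just above replicate 2 of the libraries labelled *Bmal1*-/-, and WT replicate 3 was the highest. Its log2 fold change of -1.47 (SE 0.35, adjusted p = 0.0936) did not pass in edgeR, nor did -1.77 (adjusted p = 0.101) without replicate 2. It passed with DESeq2 (adjusted p = 0.000805) and in females alone (-1.28, adjusted p = 0.0424, 2 libraries per group), where 2.97% of all genes tested were called lower.

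PRELP anchors basement membranes to the underlying collagen. *Prelp* (chromosome 1, 133910304 to 133921414) had 28.3, 53 and 26.7 CPM in libraries labelled *Bmal1*-/- and 66.5, 89.7, 54.8 and 56.3 CPM in WT. The groups were separated by the small gap between 53 and 54.8 CPM. The log2 fold change was -0.89 (SE 0.29, adjusted p = 0.165), and -1.28 (adjusted p = 0.0605) without replicate 2. With DESeq2 it was -0.89 with an adjusted p of 0.0292. DESeq2 called 4 of the 9 members lower, *Fmod*, *Aebp1*, *Lum* and *Prelp*, and 5.63% of the genes it tested. An antisense gene, *Gm15851*, shares 350 exon bases with *Prelp*, and the strand setting of the counting is not given in the sources used here.

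Decorin and biglycan bind TGF-beta as well as collagen, and biglycan released from the matrix signals through Toll-like receptors. *Dcn* (chromosome 10, 97479609 to 97518143) had 37.6, 170 and 35.1 CPM in libraries labelled *Bmal1*-/- and 226, 254, 161 and 116 CPM in WT. Replicate 2 lay inside the WT range, above WT replicates 3 and 4, while replicates 1 and 3 lay under all of WT. The log2 fold change was -1.23 (SE 0.60, adjusted p = 0.279).

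*Bgn* (chromosome X, 73483602 to 73495933) had 46.1, 206 and 41.9 CPM in the libraries labelled *Bmal1*-/- and 207, 246, 217 and 174 CPM in WT. Replicate 2 was again within the WT range, above WT replicate 4, and replicates 1 and 3 were under it. Its log2 fold change was -1.11 (SE 0.56, adjusted p = 0.289). Without replicate 2, *Dcn* had a log2 fold change of -2.38 (SE 0.34, adjusted p = 0.0368) and *Bgn* of -2.26 (SE 0.16, adjusted p = 0.00522), and both passed. That fit called 4 of the 9 members lower, *Fmod*, *Aebp1*, *Dcn* and *Bgn*, beside 0.838% of its genes. No other single library, left out, brought *Dcn* or *Bgn* past the threshold.

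**Figure D2:**
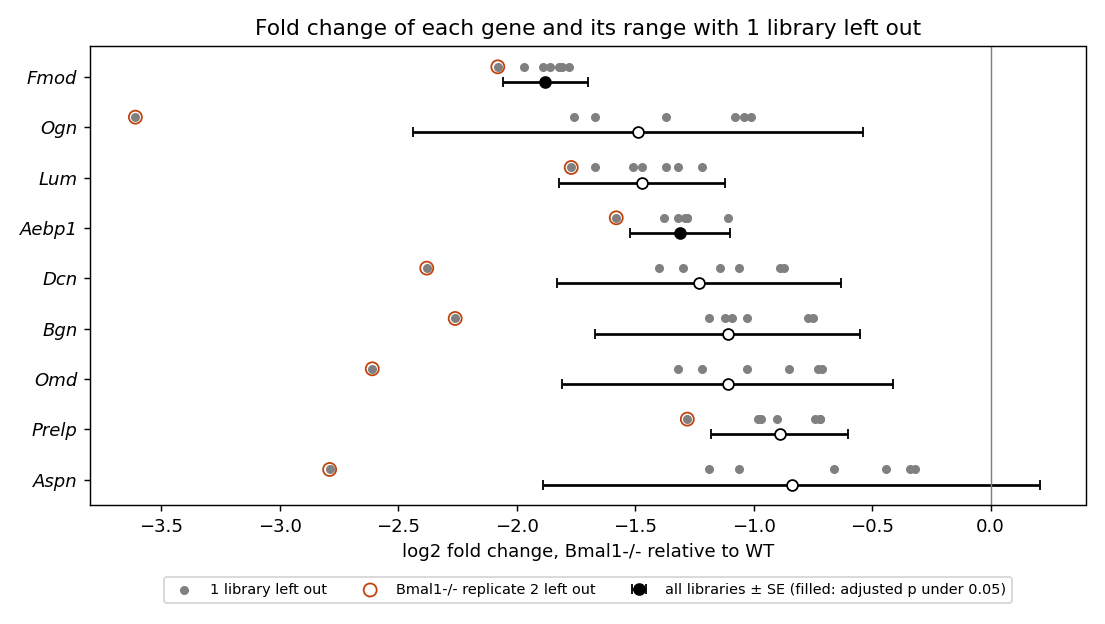
Log2 fold change of each gene (libraries labelled *Bmal1*-/- relative to WT) with its SE, filled where the adjusted p is under 0.05, and above it as grey dots the 7 values with 1 library left out. The ringed value without replicate 2 of the libraries labelled *Bmal1*-/- is the lowest of the 7 in every gene, from -1.28 in *Prelp* to -3.61 in *Ogn*, and every value lies below 0.

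The remaining members, *Ogn*, *Omd* and *Aspn*, were the least abundant and varied most between mice. *Ogn* encodes osteoglycin (mimecan), a proteoglycan of meninges, bone and cornea. It had 1.58, 15.6 and 1.27 CPM in libraries labelled *Bmal1*-/- and 21.8, 30.5, 10.4 and 6.96 CPM in WT, so that replicate 2 again lay inside the WT range. The log2 fold change was -1.49 (SE 0.95, adjusted p = 0.366), and -3.61 (SE 0.72, adjusted p = 0.0868) without replicate 2.

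*Aspn* encodes asporin, which has no sugar chain of the proteoglycan type and binds calcium and TGF-beta. Its level was 1.65, 11.4 and 0.736 CPM in the libraries labelled *Bmal1*-/- and 4.44, 16, 11.3 and 1.46 CPM in WT, where the highest library had 10.9 times the lowest. The log2 fold change was -0.84 (SE 1.05, adjusted p = 0.627), under its own SE, and -2.79 (adjusted p = 0.265) without replicate 2. *Omd*, for the bone proteoglycan osteomodulin, had 0.178, 1.23 and 0.203 CPM against 0.918, 1.8, 0.624 and 1.39 CPM. Those values rest on 7 to 70 counts per library, which also limits them by counting error. Its log2 fold change was -1.11 (SE 0.70, adjusted p = 0.363), and -2.61 (adjusted p = 0.0955) without replicate 2.

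**Figure D3:**
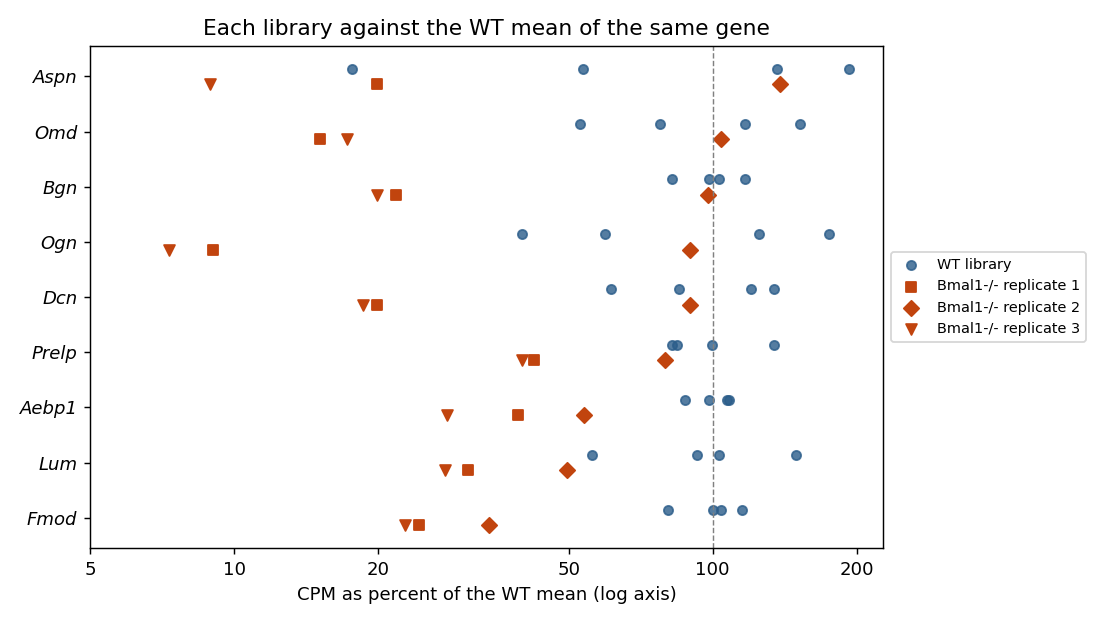
Level of each library as a percent of the gene's WT mean, on a log axis (circles WT, squares, diamonds and triangles replicates 1, 2 and 3 of the libraries labelled *Bmal1*-/-). Replicates 1 and 3 range from 7.29% for *Ogn* to 42.4% for *Prelp*, while replicate 2 ranges from 34.1% for *Fmod* to 138% for *Aspn*.

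Levels per kilobase used the joined length of all annotated exons of a gene, which can exceed that of the transcripts present. The order, sums and shares below depend on these lengths, with 6099 bases for *Bgn* and 5838 for *Dcn*. By this measure *Bgn*, *Aebp1* and *Dcn* were the most abundant of the 9 in WT, at 34.6 ± 4.93, 33.1 ± 3.11 and 32.5 ± 10.7 RPKM (SD, n = 4). *Prelp* (18.5 RPKM), *Lum* (13.2 RPKM) and *Fmod* (12.3 RPKM) followed, then *Ogn* (6.79 RPKM), *Aspn* (3.52 RPKM) and *Omd* (0.526 RPKM). The ranges of the WT libraries overlapped between each gene and the next in this order. Within single libraries, *Dcn* was above *Prelp*, *Fmod* above *Ogn* and *Aspn* above *Omd* in 4 of 4 WT libraries. The order of the other neighbours was not the same in each, with *Bgn* above *Aebp1*, *Prelp* above *Lum* and *Ogn* above *Aspn* in 3 of 4, *Aebp1* above *Dcn* in 2 of 4 and *Lum* above *Fmod* in 1 of 4. The 8 SLRPs together summed to 30.3, 99.8 and 27.6 RPKM in the libraries labelled *Bmal1*-/- and to 127, 156, 117 and 88.1 RPKM in WT.

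Within that sum, the share of *Prelp* in replicates 1 and 3 lay above that in all other libraries. It was 25.9% and 26.7%, where replicate 2 had 14.7% and WT 13% to 17.7%. *Ogn* held 2.03% and 1.79% in replicates 1 and 3, against 6.11% in replicate 2 and 3.08% to 7.62% in WT. *Fmod* held 4.2% in replicate 2, under every other library (8.46% to 14.5% in WT, 9.87% and 10.1% in replicates 1 and 3). *Lum* held 13.5% and 13.2% in replicates 1 and 3, 6.59% in replicate 2 and 8.38% to 16.8% in WT. *Dcn* and *Bgn* gave 21.3% to 30.6% and 24.9% to 33.9% of the sum in every library. These shares were looked at after the levels were known and were not tested.

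**Figure D4:**
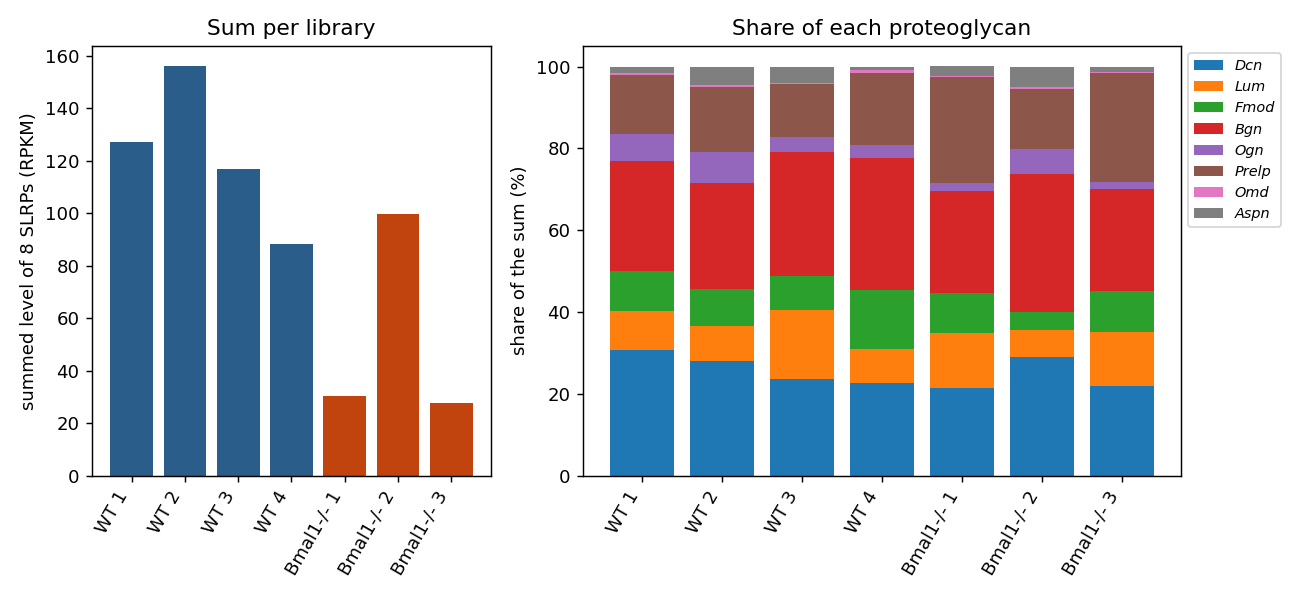
Left, the summed level of the 8 SLRPs in each library in RPKM. Right, the share of each proteoglycan in that sum in percent. Replicates 1 and 3 of the libraries labelled *Bmal1*-/- have the lowest sums, 30.3 and 27.6 RPKM, and the highest *Prelp* shares, while replicate 2 (99.8 RPKM) has a sum inside the WT range and the lowest *Fmod* share.

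Over the 7 libraries the members moved together, with Pearson's r of log2 CPM from 0.48 (*Aspn* and *Fmod*) to 0.99 (*Ogn* and *Dcn*). *Bgn* and *Dcn* had an r of 0.98 and *Aebp1* was most like *Fmod*, with 0.96. These are descriptions over 7 points that share libraries and the split by label. Of 14353 other genes with a mean of at least 1 CPM, those most like the standardised mean of the members were *Fcgrt* (r = 0.998), *Arhgap29* (0.997), *Zic2* (0.990), *Zic5* (0.989) and *Ccdc80* (0.988). *Fcgrt*, which encodes the Fc receptor that recycles IgG and albumin, had 28.4, 39.8 and 25.9 CPM in libraries labelled *Bmal1*-/- and 45.9, 50.4, 45.6 and 40.6 CPM in WT, again with replicate 2 the nearest to WT. *Fmod* alone was most like *Ndp* (0.993), *Hopx*, *Gnb4*, *Myoc* and *Slc25a34* (0.986). *Aebp1* was most like *Otud3* (0.992), *Gas7*, *Ltbp1*, *Cyp39a1* and *Efs* (0.984).

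SLRP genes lie in clusters, and the genes within 150 kb of them were read in turn. On chromosome 10, *Dcn* and *Lum* are followed by *Kera* and *Epyc*, SLRPs of cornea and cartilage, which had at most 7 and 37 counts in any library. On chromosome 1, *Prelp* and *Fmod* lie beside *Optc* (0.61 to 1.05 CPM, log2 fold change -0.23, adjusted p = 0.527). Beyond *Fmod* lie *Btg2* (-0.26, adjusted p = 0.257), *Chit1*, which had 1 to 13 counts per library and was not tested, and *Chil1*, a secreted chitinase-like protein, which fell by 2.76 on the log2 scale (adjusted p = 0.000738), from 52.3 to 85.9 CPM in WT to 9.93 to 10.4 CPM. On chromosome 13, *Ecm2*, *Aspn* (49544443 to 49567565), *Omd* (49582462 to 49592822) and *Ogn* (49608046 to 49624501) lie in a row inside *Cenpp*, which is on the other strand and shares 7 exon bases with *Aspn* (*Cenpp* log2 fold change -0.64, adjusted p = 0.172). The genes on either side, *Ippk* and *Nol8*, had log2 fold changes of 0.04 and -0.01.

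Genes tied to the SLRPs by synthesis, binding or processing were read from 7 lists, of which 89 genes were tested. None of the 89 was called lower by edgeR, where 0.915% of all genes were. DESeq2 called 4 genes of the lists lower (*Chsy1*, *Csgalnact1*, *Fn1* and *Kdr*), and 5.63% of all the genes it tested. At an unadjusted p under 0.05, 14.6% of the 89 were lower (13 genes), close to the 12.2% of all genes. Called higher were 2 of the 89, where 0.654% of all genes were. DESeq2 called 4 higher (*Col5a3*, *Htra1*, *Mmp14* and *Cpxm2*), and 3.5% of all its genes. At an unadjusted p under 0.05, 6.74% were higher (6 genes), beside 8.64% of all genes. *Col5a3*, a chain of the fibril-nucleating collagen V, rose from 53.4, 65.8, 75.2 and 58.7 CPM in WT to 209, 222 and 177 CPM (log2 fold change 1.68, SE 0.13, adjusted p = 0.00167). Each library labelled *Bmal1*-/- was above the highest WT library, and the call held with each library left out (1.60 to 1.77, with 1.61 and an adjusted p of 0.00848 without replicate 2). *Htra1*, a secreted serine protease that can cleave decorin and biglycan, was at 363, 380 and 381 CPM against 220, 213, 186 and 241 CPM in WT, and rose as well (0.80, SE 0.09, adjusted p = 0.0107). Its call was kept without replicate 2 (0.79, adjusted p = 0.0397) and lost without replicate 1 (0.83, adjusted p = 0.0665) or 3 (0.79, adjusted p = 0.06) of the libraries labelled *Bmal1*-/-.

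By list, with calls by edgeR, the other SLRPs had 9 genes tested and none called, with a median log2 fold change of -0.23. The most abundant, *Ecm2*, was at 11.5, 18.5 and 11.2 CPM against 16.5, 22.9, 12.5 and 15.4 CPM in WT (-0.29, adjusted p = 0.49), and its log2 fold change was -0.56 (adjusted p = 0.307) without replicate 2. The enzymes of chondroitin and dermatan sulfate synthesis (21 tested, none called by edgeR) had a median of -0.11, and their sum was 777 to 799 CPM against 820 to 861 CPM in WT. DESeq2 called *Chsy1* (-0.48, adjusted p = 0.00309) and *Csgalnact1* (-0.32, adjusted p = 0.00104) lower. *Chst11*, the sulfotransferase with the highest level among them, had a log2 fold change of -0.22 (adjusted p = 0.192). The keratan sulfate enzymes (7 tested, none called) had a median of -0.30, with *Chst2* at -0.30 (adjusted p = 0.235).

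The 19 collagen fibril partners had a median of -0.24, with *Col5a3* the 1 called. Their sum was 1707, 4614 and 1361 CPM in the libraries labelled *Bmal1*-/- and 3042 to 3664 CPM in WT, so that replicate 2 was above every WT library. As a percent of the WT mean, the median gene was at 160% in replicate 2 and at 35.7% in the mean of replicates 1 and 3. Without replicate 2 the median log2 fold change of the collagen partners was -1.48, and that of the other SLRPs -0.56. In that fit 9 genes of the 7 lists passed lower, beside 0.838% of all genes, with log2 fold changes from -2.48 to -1.07. They were the collagen genes *Col1a1*, *Col1a2*, *Col3a1*, *Col5a1*, *Col5a2* and *Col6a3*, the SLRP genes *Podn* and *Tsku*, and *Ctgf*, a matrix-bound growth factor. Ligands and receptors (15 tested, none called) had a median of -0.34, and *Lrp1*, a decorin receptor, was at 948, 1025 and 1015 CPM against 933 to 1150 CPM in WT. The processing proteases (11 tested) had a median of -0.02, with *Htra1* the 1 called. The relatives of AEBP1 among the carboxypeptidases (7 tested, none called) had a median of 0.18, which was -0.08 without replicate 2, and *Cpe*, the most abundant, had a log2 fold change of 0.18 (adjusted p = 0.337).

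Markers of fibroblasts and of meninges also set replicate 2 apart from replicates 1 and 3. Their median ratios were above those of *Fmod* (1.45) and *Aebp1* (1.61). Which cells made the SLRPs in these samples was not tested. Of 13 fibroblast markers tested, 13 were higher in replicate 2 than in replicates 1 and 3, with a median ratio of 4.49, and their sums were 522, 2446 and 437 CPM in the libraries labelled *Bmal1*-/- and 1234 to 1869 CPM in WT. *Tcf21* was at 0 in all libraries, and *Col1a1*, *Col1a2*, *Col3a1* and *Col6a1* are on both this list and that of collagen partners. *Pdgfra*, which oligodendrocyte precursors also express, was at 103 to 117 CPM in every library. Of 14 meningeal markers, 12 were higher in replicate 2 (median ratio 5.69). Their sums were 373, 448 and 305 CPM against 386 to 433 CPM in WT, so that replicate 2 had the highest sum. Most of each sum came from *Igfbp2* (176 to 242 CPM, WT 134 to 204) and *Cgnl1* (108 to 116 CPM, WT 108 to 133). As a percent of the WT mean, the median meningeal marker was at 96.1% in replicate 2. It was at 21.5% in the mean of replicates 1 and 3. Of the fibroblast markers 10 of 13 had a log2 fold change below 0 (median -0.47, and -1.72 without replicate 2), and of the meningeal markers 10 of 14 (median -0.89, and -2.30 without it). No fibroblast or meningeal marker was called in either direction by edgeR (2 and 4 at an unadjusted p under 0.05), while DESeq2 called *Pi16*, *Clec3b*, *Aldh1a2* and *Tbx18* lower. Without replicate 2, edgeR called 4 of each list lower.

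**Figure D5:**
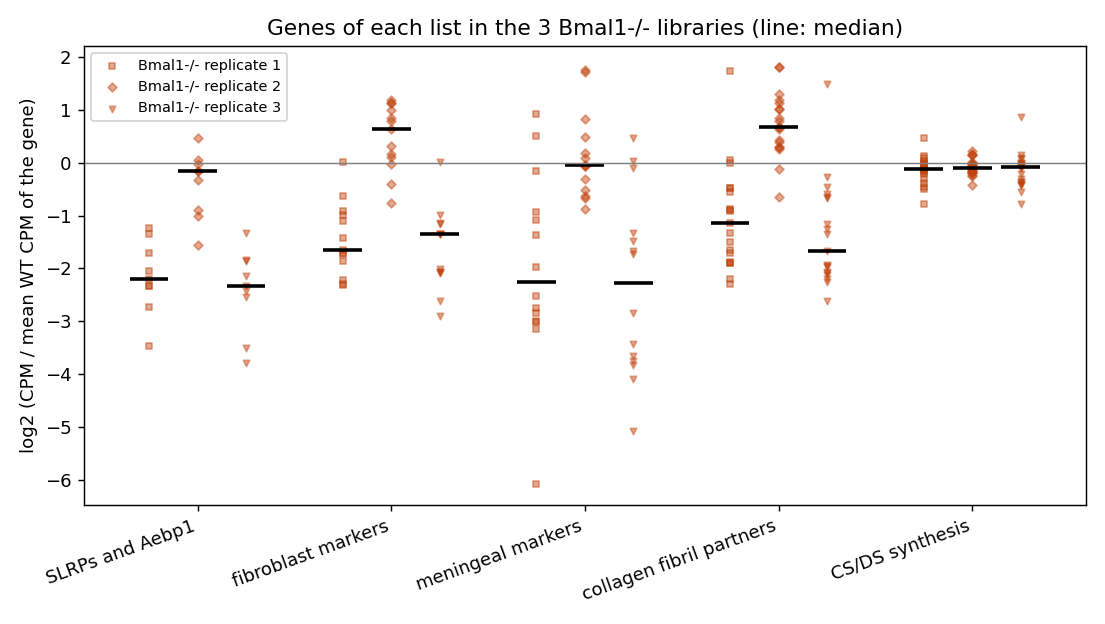
Level of each gene of 5 lists in the 3 libraries labelled *Bmal1*-/-, as log2 of its ratio to the WT mean (squares, diamonds and triangles replicates 1, 2 and 3, black lines the medians). The members, fibroblast markers, meningeal markers and collagen partners have higher medians in replicate 2 than in replicates 1 and 3, while the chondroitin and dermatan sulfate enzymes lie near 0 in all 3.

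Markers of other tissues and of vessel and immune cells were read too, and some of them differed between the labels. Of the markers of Schwann cells, the glia of peripheral nerve and roots, *Egr2* and *Cdh19* were called lower. *Egr2* had 2.8, 3.53 and 2.66 CPM in libraries labelled *Bmal1*-/- and 6.32, 6.71, 6.69 and 5.75 CPM in WT, with no overlap (log2 fold change -1.09, SE 0.14, adjusted p = 0.0155). Of 10 skeletal muscle markers, 9 had a log2 fold change below 0, and 1 had each library labelled *Bmal1*-/- over WT. Called lower were 8 (5 without replicate 2), with the actin gene *Acta1* at 1.39 to 2.11 CPM against 8.52 to 21.7 CPM. Pericyte and smooth muscle markers summed to 435 to 539 CPM against 751 to 981 CPM in WT, with no overlap and a median log2 fold change of -0.31. Of these 11, edgeR called *Tagln* lower. The 6 at an unadjusted p under 0.05 went both ways, with *Abcc9* (log2 fold change 0.26) and *Notch3* (0.33) higher and the others lower. DESeq2 called 3 lower and *Abcc9* higher. Endothelial markers summed to 410 to 483 against 487 to 814 CPM, again with no overlap. All 8 had a log2 fold change below 0 (median -0.52), of which *Cdh5* was called by edgeR (4 at an unadjusted p under 0.05, and none called without replicate 2), and *Cdh5* and *Tek* by DESeq2. Tendon, cartilage and bone markers, of tissues also rich in SLRPs, summed to 76.4 to 86.9 against 77.2 to 92.6 CPM, with none of 11 called by edgeR (1 at an unadjusted p under 0.05, and *Alpl* with DESeq2). Macrophage and microglia markers summed to 2205 to 2759 against 2216 to 4179 CPM.

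Markers of astrocytes, neurons and oligodendrocytes were read in the same way. Astrocyte markers summed to 14099 to 16779 CPM in the libraries labelled *Bmal1*-/- and to 9522 to 13607 CPM in WT, with no overlap. Of these 6, *Gfap*, *Aqp4* and *Slc1a2* were over WT in each library labelled *Bmal1*-/-, and *Aldh1l1* was under WT in each. *Gfap* alone had 10019 to 12655 CPM of these sums, against 7456 to 9998 CPM in WT. The median log2 fold change was 0.22. None of the 6 was called by edgeR. The 3 at an unadjusted p under 0.05 were *Aldh1l1* and *Slc1a3*, both lower (log2 fold changes -0.47 and -0.44), and *Slc1a2*, higher (0.53). DESeq2 called *Gfap* higher and *Aldh1l1* lower. Neuron markers summed to 4880 to 5958 against 1915 to 4919 CPM, overlapping at 1 library of each group, and all 6 had a log2 fold change above 0 (median 0.40, none called and 0 at an unadjusted p under 0.05, and 0 with DESeq2). Oligodendrocyte markers summed to 18979 to 23936 against 19175 to 27999 CPM. The part that these cells and tissues have in the levels of *Fmod*, *Aebp1* and the other members was not tested.

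By sex, no member's difference between labels differed between males and females at an adjusted p under 0.05 in a fit with an interaction term. *Aebp1* came nearest, with a difference of -0.81 on the log2 scale (unadjusted p = 0.0324 from edgeR's quasi-likelihood test, adjusted p = 0.4). Only 1 male library was labelled *Bmal1*-/-. Among females alone, *Fmod*, *Aebp1* and *Lum* passed, all lower, which is 3 of 9 members beside 2.97% of all genes.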

How the data were processed

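RNASeq was made from the contused T9 segment of 3 mice labelled *Bmal1*-/- and 4 WT mice. Libraries were stranded and poly-A selected. The authors checked reads with FastQC 0.10.1, mapped them to GRCm38 (mm10) using Tophat2 and assigned them to genes using HTSeq 0.10.0. The deposited values are raw counts per Ensembl gene without normalization. The annotation release and the strand setting of the counting are not given in the sources used here.

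The filterByExpr function of edgeR, given the genotype, kept 15743 of 21965 genes. After TMM scaling, genotype was tested by quasi-likelihood in edgeR 4.0.16 (with limma 3.58.1 and R 4.3.3), p was adjusted by Benjamini-Hochberg over all genes tested, and the threshold was 0.05. SE was derived from the test, as the size of the log2 fold change divided by the square root of the quasi-likelihood F statistic. CPM are counts scaled by library size and TMM factors, and log2 CPM for correlations used a prior count of 2. RPKM divide CPM by the joined length in kb of all annotated exons of the gene. Positions and lengths came from GENCODE M21 and promoters from RefSeq. Alternatives were DESeq2 1.42.0, limma-voom, RLE and upper-quartile scaling, a filter at 1 count in any library, another at a mean of 10 counts, a sex covariate, females only, a replicate block and each of the 7 libraries left out. Plots were drawn with matplotlib 3.10.9.

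The members and the lists were chosen with earlier results of these data known. All 9 members are named. From the pathway lists those past the threshold are named, and otherwise the most abundant gene of a list. For likeness the 5 genes with the highest correlation are named. Other genes are named for their position or because 5 or fewer of a list passed. Markers picked after their values were seen are *Pdgfra*, *Egr2*, *Acta1*, *Gfap*, *Aqp4*, *Slc1a2*, *Slc1a3*, *Aldh1l1*, *Notch3*, *Igfbp2* and *Cgnl1*. The libraries are separate mice by the study's methods. Each p-value sets the difference between labels against the spread between mice of the same label, estimated with the help of all genes. The sum of 1 marker list and 1 of its genes are not reported here.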

Additional observations from a re-analysis of the deposited data

How the results depend on the processing

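The tests rest on 3 and 4 libraries, and *Omd* on 7 to 70 counts per library. No member changed direction in any of the 16 alternatives. *Fmod* passed in 15 of them and *Aebp1* in 10, all with log2 fold changes below -1. The number of members called lower was 2, and it was 4 with DESeq2 and 1 to 4 with a library left out, the 4 without replicate 2 of the libraries labelled *Bmal1*-/- and the 1 without replicate 1 or 3 of them or without WT replicate 1, 2 or 4. The number called higher was 0 throughout. Of the pathway genes, 0 were called lower, against 4 with DESeq2 and 0 to 9 with a library left out (9 without replicate 2 of the libraries labelled *Bmal1*-/-, 3 without WT replicate 3), and 2 were called higher, against 4 with DESeq2 and 1 to 3 with a library left out (1 without replicate 1 or 3 of the libraries labelled *Bmal1*-/-, 3 without WT replicate 3). *Lrp1*, near 0 in the main setting at -0.01, was at 0.01 with sex as a covariate, 0.04 in females, 0.06 with the replicate block, and -0.04 to 0.06 with a library left out. Where a call was gained or lost, the cause was not tested.

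A replicate block over the 6 libraries numbered 1 to 3 called 0 members and 0 pathway genes in either direction, and 0 of all genes, where the same 6 libraries without the block gave 67 lower and 58 higher genes. Under the block *Fmod* had a log2 fold change of -1.87 (edgeR, adjusted p = 0.0693) and 8 of the 9 members had an unadjusted p under 0.05. The labels do not say that the numbers pair the mice, though libraries numbered 1 to 3 are of the same sex in both groups. The deviations of same-numbered libraries from their group means correlated at -0.174, 0.183 and -0.295. Replicates 1 and 3 of the libraries labelled *Bmal1*-/- correlated best with WT replicates 3 (0.335) and 4 (0.331). With so few libraries, each centred on its own group mean, these values cannot decide whether the mice were paired.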
